A study of Mus musculus with 16 samples.

Results

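The type I interferon response genes described here are a module of 42 genes, chosen by name as a list and by no measured threshold, that cells switch on when interferon reaches them. They comprise sensors of foreign nucleic acid, transcription factors of the response, and the antiviral, antigen-processing and chemokine genes that these factors induce. A row was found for 39 of the 42, all 39 were tested, and Ifit3, Mx1 and Oas1a were not analysed here. The table held 13733 genes in all, of which 13173 were tested.

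Bulk RNA-seq had been run on cells from knee joints of 16 male mice, 4 in each of 4 groups. WT mice were wildtype C57BL/6, and Trem2-/- mice carried a germline knockout of Trem2, a surface receptor of myeloid cells, on the same background, so that the gene was inactivated in all their cells. D0 joints were uninjured, and D7 joints were taken 7 days after rupture of the anterior cruciate ligament by a single tibial compression, which according to the protocol was given at 10 weeks of age. The sources conflict on the material: the methods and a label field describe cells released from the joint, while another label field describes homogenized whole joints, an age of 16 weeks and a diabetes study. Whether leukocytes were enriched was not stated, and the groups were taken from genotype and injury state, on which the sources do not differ.

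Values are CPM, a gene's reads relative to all reads of its library, after TMM scaling by the authors, which evens out differences in the makeup of the libraries. Between 11567073 and 32867818 reads per library stood behind them. The lowest value of any member was 3.25 CPM, of Ifi44, and the fewest reads behind any member's value were 50, of Zbp1. Trem2 was at 15.1, 22.5, 18.9 and 10.7 CPM in the WT D7 mice and at 4.13, 4.69, 3.42 and 4.84 CPM in the Trem2-/- D7 mice. At D0 it was at 2.51, 4.88, 5.26 and 5.61 CPM in WT mice and at 1.88, 0.948, 2.68 and 1.70 CPM in Trem2-/- mice. Reads on the gene thus remained in the knockout at a lower level, and at D0 the genotypes overlapped.

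Type I interferons are secreted proteins that bind the receptor formed by Ifnar1 and Ifnar2 on the surface of nearly all cells. The receptor's kinases then activate Stat2, which joins Irf9 in a complex that binds the interferon-stimulated response element (ISRE) in front of interferon-stimulated genes. Irf7 amplifies further interferon production and Usp18 restrains the receptor, while interferon gamma acts through a separate receptor on an overlapping set of genes, among them those of the GBP and IRG families.

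After injury a minority of the interferon response genes passed as lower in WT mice and most of them did so in Trem2-/- mice. In WT mice 7 of the 39 members fell with an adjusted p under 0.05, which is 17.9% of them, beside 12.6% of all genes tested. They were Irf9, Herc6, Psmb8, Tap1, Cmpk2, Samd9l and Trim30a. In Trem2-/- mice 26 of the 39 members fell, which is 66.7%, beside 27.2% of all genes tested. The 26 included all 7 of WT mice. P-values were adjusted within each comparison, and a larger share of all genes passed in Trem2-/- mice. The same unadjusted p can therefore pass in Trem2-/- mice and not in WT mice. Ifit2 had a log2 fold change of -0.65 in WT mice (limma, adjusted p = 0.0703) and of -0.64 in Trem2-/- mice (adjusted p = 0.0477). No member rose in either genotype with limma, and none was higher at an unadjusted p under 0.05, whereas 15.9% of all genes tested rose in WT and 26% in Trem2-/- mice. By this count the WT share of falls is near that of all genes, while the Trem2-/- share is above it. The WT count depends on the method: with edgeR and with quantile normalization 10 members fell in WT mice. By the study's own rule, given below, 41.0% of the members were lower in WT mice, beside 18.2% of all genes. No member passed in the test of the difference between the genotypes' responses, also given below.

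The members' log2 fold changes, D7 minus D0 on the log2(CPM + 1) scale, had a median of -0.46 in WT mice and of -0.68 in Trem2-/- mice, against -0.04 over all genes in each genotype. The lowest was -1.02 in WT and -2.01 in Trem2-/- mice. The estimate lay below 0 for 38 of the 39 members in each genotype, beside 54.2% of all genes in WT and 53% in Trem2-/- mice. The exception in both was Ifi44, whose estimate of 0.03 in WT turned to below 0 with edgeR, with a pseudocount of 5 and with quantile normalization, and whose estimate of 0.06 in Trem2-/- mice did so with voom. By the study's own rule, an unadjusted p under 0.05 and a log2 fold change beyond 0.32 in either direction, 16 members were lower in WT mice (18.2% of all genes were) and 29 in Trem2-/- mice (27.9% of all genes were). All D7 mice lay below all D0 mice for 6 members in WT (9.34% of all genes) and for 21 in Trem2-/- mice (26.3% of all genes).

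**Figure D1:**
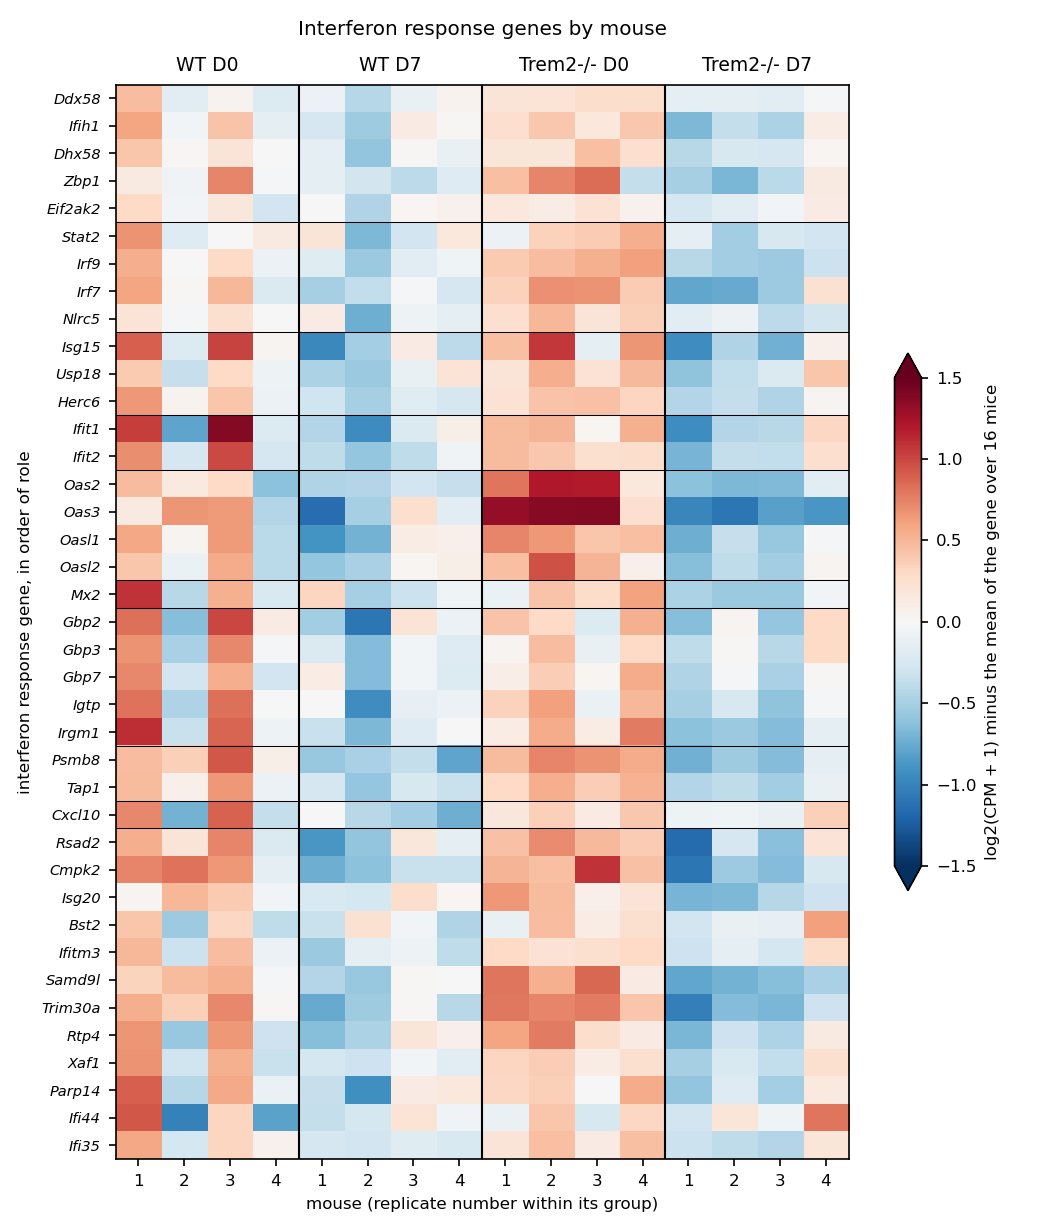
Each row is a member and each column a mouse, and the color gives the member's log2(CPM + 1) minus its mean over all 16 mice, red above and blue below. The D7 columns are mostly blue in both genotypes, WT D0 replicates 1 and 3 are redder than replicates 2 and 4, and Trem2-/- D7 replicate 4 is paler than the other Trem2-/- D7 mice.

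Which WT members passed depended on single mice of WT D0. Without WT D0 replicate 2 the adjusted count in WT was 16 and without replicate 4 it was 15, whereas without replicate 3 it was 4. The WT count by the study's rule was 26 without WT D0 replicate 2, 26 without replicate 4, 8 without replicate 3, 6 without replicate 1, and 9 without WT D7 replicate 2. Psmb8, Tap1, Cmpk2 and Trim30a passed in WT with each of the 16 libraries left out in turn, and 20 of the 26 members passed in this way in Trem2-/- mice, where the count ranged from 20 to 30. When the Trem2-/- mice were left out of the fit, the same 4 members passed in WT mice, and the calls of Irf9, Herc6 and Samd9l were lost.

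Promoters were searched for the ISRE, the element bound by the complex of Stat2 and Irf9. RefSeq promoters, from 250 bases before to 50 bases after the start of transcription, were at hand for 31 of the 39 members. The ISRE core, GAAA and GAAA with 2 free bases between them, was searched on both strands. A gene with several promoters was counted once, as holding the core if any of them did. The core was found for 17 of these 31 members (54.8%), beside 3.62% of the 10515 genes of the series with a promoter. The core of the gamma-activated site, TTCNNNGAA, was found for 9 of the 31 (29%), beside 8.18%. A match of these letters is a description and not a binding site. The windows below were chosen to show the core in members of several roles, read 5′ to 3′ on the strand of the gene, with the matching bases in capitals; where the core lies on the opposite strand it reads TTTC and TTTC.
Stat2, chr10:128270266-128270295, plus strand, RefSeq on GRCm38.p6: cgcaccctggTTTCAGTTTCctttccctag
Isg15, chr4:156200865-156200906, minus strand, RefSeq on GRCm38.p6: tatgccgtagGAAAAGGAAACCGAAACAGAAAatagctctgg
Ifit1, chr19:34640775-34640823, plus strand, RefSeq on GRCm38.p6: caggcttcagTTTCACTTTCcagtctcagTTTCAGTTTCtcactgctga
Oas3, chr5:120777715-120777744, minus strand, RefSeq on GRCm38.p6: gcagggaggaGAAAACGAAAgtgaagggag
Gbp7, chr3:142530273-142530302, plus strand, RefSeq on GRCm38.p6: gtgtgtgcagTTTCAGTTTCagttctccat
Igtp, chr11:58199512-58199541, plus strand, RefSeq on GRCm38.p6: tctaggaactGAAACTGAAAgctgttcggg
Cxcl10, chr5:92349083-92349112, minus strand, RefSeq on GRCm38.p6: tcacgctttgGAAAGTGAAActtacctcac
Rsad2, chr12:26456553-26456582, minus strand, RefSeq on GRCm38.p6: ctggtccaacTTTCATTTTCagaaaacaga
Bst2, chr8:71537577-71537612, minus strand, RefSeq on GRCm38.p6: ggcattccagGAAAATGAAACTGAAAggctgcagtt
Trim30a, chr7:104465210-104465239, minus strand, RefSeq on GRCm38.p6: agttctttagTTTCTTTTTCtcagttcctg
In Isg15 3 overlapping matches run together, in Ifit1 there are 2 separate ones, and in Bst2 there are 2 overlapping ones. These members did not move alike: Oas3 and Trim30a had among the lowest log2 fold changes of the module in Trem2-/- mice, while Bst2 and Cxcl10 passed in neither genotype. The 17 members with the core had a median log2 fold change of -0.55 in WT, where 1 of them fell, and of -0.59 in Trem2-/- mice, where 8 of them fell. The 14 with a promoter and no core had a median of -0.54 in WT, where 6 of them fell, and of -0.88 in Trem2-/- mice, where 12 of them fell. The shares of all genes that fell, 12.6% in WT and 27.2% in Trem2-/- mice, are the background of these counts, and the difference between members with and without the core was not tested.

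The sensors detect viral nucleic acid inside the cell. Ddx58 and Ifih1 bind viral RNA and start interferon production, Dhx58 modulates both, Zbp1 senses left-handed nucleic acid and can trigger cell death, and Eif2ak2 shuts down translation on double-stranded RNA. None of the 5 passed in WT mice, and 4 of the 5 fell in Trem2-/- mice, all but Eif2ak2. Zbp1 was at 6.81, 5.88, 10.8 and 5.99 CPM in the WT D0 mice and at 5.50, 4.87, 4.45 and 5.23 CPM in the WT D7 mice. Zbp1 reached 8.74, 10.8, 11.7 and 4.56 CPM in the Trem2-/- D0 mice and 4.03, 3.45, 4.37 and 6.84 CPM in the Trem2-/- D7 mice. The WT groups did not overlap, whereas Trem2-/- D0 replicate 4 lay among the D7 mice. Zbp1 fell in Trem2-/- mice (log2 fold change -0.78, standard error 0.25, adjusted p = 0.0163), and in WT mice its log2 fold change was -0.45 (adjusted p = 0.182; exact two-sided permutation test, p = 0.0286, the smallest that 4 mice against 4 allow). Its Trem2-/- call was lost without Trem2-/- D0 replicate 2 or 3 or without Trem2-/- D7 replicate 2, with adjusted p up to 0.0562. Ifih1 ranged from 32.9 to 39.2 CPM at Trem2-/- D0 and from 18.1 to 31.9 CPM at D7, without overlap (log2 fold change -0.65, standard error 0.19, adjusted p = 0.0111). Dhx58 fell likewise in Trem2-/- mice (log2 fold change -0.49, standard error 0.15, adjusted p = 0.0113). Ddx58 had the smallest called change of the sensors (log2 fold change -0.36, standard error 0.13, adjusted p = 0.0331), and the call was lost when any 1 Trem2-/- mouse other than Trem2-/- D7 replicate 4 was left out, with adjusted p up to 0.0735. For Eif2ak2 the log2 fold change was -0.12 in WT and -0.22 in Trem2-/- mice (adjusted p = 0.520 and 0.195).

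Among the transcription factors, Stat2 and Irf9 are partners in the complex that binds the ISRE, Irf7 drives further interferon genes, and Nlrc5 switches on MHC class I genes. All 4 fell in Trem2-/- mice with no overlap of the groups, and Irf9 alone fell in WT mice. Irf9 was at 94.8, 65.1, 79.6 and 60.8 CPM in the WT D0 mice and at 56.7, 43.4, 57.5 and 61.8 CPM in the WT D7 mice. Irf9 reached 84.8, 89.7, 93.9 and 99.9 CPM in the Trem2-/- D0 mice and 48.3, 44.8, 44.1 and 51.5 CPM in the Trem2-/- D7 mice. The Trem2-/- values at D7 lay close together and far below those at D0, while in WT the highest D7 mouse reached just above the lowest D0 mouse. The fall of Irf9 was 1.93-fold in Trem2-/- mice (log2 fold change -0.95, standard error 0.14, adjusted p = 6.26e-05) and 1.35-fold in WT mice (log2 fold change -0.44, standard error 0.14, adjusted p = 0.0273). The WT call was lost without WT D0 replicate 1 or 3 or without WT D7 replicate 2, with adjusted p up to 0.0832, and with only the groups compared (adjusted p = 0.105).

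Irf7 was at 75.1, 50.3, 70.7 and 42.7 CPM in the WT D0 mice and at 34.96, 38.3, 48.6 and 41.6 CPM in the WT D7 mice. Its values in Trem2-/- mice were 63.1, 80.7, 79.9 and 65.03 CPM at D0 and 28.6, 29.01, 33.7 and 58.4 CPM at D7. Trem2-/- D7 replicate 4 stood well above the other 3 D7 mice and still below every Trem2-/- D0 mouse. Irf7 fell in Trem2-/- mice (log2 fold change -0.98, standard error 0.22, adjusted p = 0.00156), and in WT mice its log2 fold change was -0.51 (adjusted p = 0.0875). That WT value passed without WT D0 replicate 4 (adjusted p = 0.0358) and without Trem2-/- D7 replicate 4 (adjusted p = 0.0395), which enters through the shared estimate of the spread. Stat2 was at 106, 57.6, 65.7 and 72.6 CPM in the WT D0 mice and at 75.3, 40.9, 53.7 and 73.7 CPM in the WT D7 mice. Stat2 reached 61.9, 84.1, 86.3 and 96.7 CPM in the Trem2-/- D0 mice and 59.7, 45.6, 55.7 and 54.05 CPM in the Trem2-/- D7 mice. WT mice overlapped widely, from the highest value of all in WT D0 replicate 1 to the lowest in WT D7 replicate 2. Stat2 fell in Trem2-/- mice (log2 fold change -0.59, standard error 0.21, adjusted p = 0.0260), a call lost without Trem2-/- D0 replicate 2, 3 or 4 or without Trem2-/- D7 replicate 2 (adjusted p up to 0.0755), and in WT mice its log2 fold change was -0.31 (adjusted p = 0.267). Nlrc5 fell in Trem2-/- mice (log2 fold change -0.55, standard error 0.15, adjusted p = 0.00664) and had a log2 fold change of -0.31 in WT mice (adjusted p = 0.136).

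Isg15 encodes a ubiquitin-like protein that is attached to others, Herc6 the ligase that attaches it, and Usp18 the protease that removes it and dampens the receptor. Isg15 and Herc6 fell in Trem2-/- mice, and Herc6 fell in WT mice too. Isg15 was at 76.5, 35.1, 83.2 and 41.8 CPM in the WT D0 mice and at 20.4, 28.3, 44.3 and 30.7 CPM in the WT D7 mice. Isg15 reached 56.2, 85.7, 37.2 and 65.03 CPM in the Trem2-/- D0 mice and 20.96, 29.5, 24.4 and 42.9 CPM in the Trem2-/- D7 mice. The D0 mice of each genotype spread over a wide range, and the groups overlapped in both genotypes. Isg15 fell 2.02-fold in Trem2-/- mice (log2 fold change -1.02, standard error 0.32, adjusted p = 0.0144), and in WT mice its log2 fold change was -0.87 with an adjusted p of 0.0518, just outside the threshold. That WT p fell below 0.05 with edgeR (adjusted p = 0.0454), with quantile normalization (adjusted p = 0.0436) and without any of 6 libraries, among them WT D0 replicates 2 and 4. Herc6 ranged from 15.9 to 27.2 CPM at WT D0 and from 11.7 to 14.8 CPM at WT D7 (log2 fold change -0.56, standard error 0.16, adjusted p = 0.0169), a call lost without WT D0 replicate 3 (adjusted p = 0.0584) and with only the groups compared (adjusted p = 0.0656). In Trem2-/- mice Herc6 also fell without overlap (log2 fold change -0.66, standard error 0.16, adjusted p = 0.00272); 11.3% of its 75-base stretches occur in other annotated genes. Usp18 was at 9.62, 5.35, 8.93 and 6.64 CPM in the WT D0 mice and at 4.81, 4.47, 6.48 and 8.32 CPM in the WT D7 mice. Its Trem2-/- values were 8.27, 10.8, 8.35 and 10.3 CPM at D0 and 4.33, 5.24, 5.94 and 9.76 CPM at D7. WT D7 replicates 3 and 4 and Trem2-/- D7 replicate 4 lay among the D0 mice of their genotype, and the log2 fold changes were -0.30 in WT (adjusted p = 0.324) and -0.55 in Trem2-/- mice (adjusted p = 0.0525). The Trem2-/- value passed without Trem2-/- D7 replicate 4, at a log2 fold change of -0.76 (adjusted p = 0.00985), without WT D0 replicate 1 or 2 or WT D7 replicate 4, with voom (adjusted p = 0.0307) and with the WT mice left out of the fit (adjusted p = 0.0483).

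The IFIT proteins bind viral RNA and block its translation. Ifit1 was at 73.1, 19.9, 92.5 and 30.3 CPM in the WT D0 mice and at 25.6, 17.7, 30.1 and 37.2 CPM in the WT D7 mice. Its Trem2-/- values were 48.9, 50.2, 35.8 and 51.3 CPM at D0 and 17.8, 25.6, 25.9 and 43.5 CPM at D7. WT D0 replicates 1 and 3 were the highest of all 16 mice, while replicates 2 and 4 lay within the D7 range, and this gave Ifit1 the largest spread of any member in WT D0 mice (SD 1.02 on the log2 scale). Ifit1 had nearly equal log2 fold changes in WT (-0.74, standard error 0.39) and Trem2-/- mice (-0.76, standard error 0.39), and neither passed (adjusted p = 0.165 and 0.116). Without WT D0 replicate 2 the WT value was -1.12 and passed (adjusted p = 0.0401), and with the WT mice left out of the fit the Trem2-/- value passed (adjusted p = 0.0209). Of the 75-base stretches of Ifit1, 5.19% are shared with Ifit1bl2. Ifit2 fell in Trem2-/- mice (log2 fold change -0.64, standard error 0.26, adjusted p = 0.0477), a call lost with any of 11 libraries left out (adjusted p up to 0.142), with edgeR (adjusted p = 0.0601), with median-of-ratios scaling (adjusted p = 0.0552) and with a pseudocount of 5 (adjusted p = 0.0517), and its log2 fold change in WT mice was -0.65 (adjusted p = 0.0703).

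Oas3 and Oas2 of the OAS family had the lowest log2 fold changes of all members in Trem2-/- mice. Oas2 and Oas3 make oligoadenylates on double-stranded RNA, which activate the nuclease RNase L, whereas Oasl1 and Oasl2 are relatives that carry ubiquitin-like domains. All 4 fell in Trem2-/- mice with no overlap, with a median log2 fold change of -1.18, and none of the 4 passed in WT mice, where the median was -0.51. Oas3 was at 30.5, 44.4, 43.7 and 20.1 CPM in the WT D0 mice and at 11.98, 19.3, 32.9 and 24.5 CPM in the WT D7 mice. Oas3 reached 70.3, 72.8, 73.1 and 32.98 CPM in the Trem2-/- D0 mice and 13.6, 12.5, 15.3 and 14.7 CPM in the Trem2-/- D7 mice. The 4 Trem2-/- D7 mice lay close together, and 3 of the 4 Trem2-/- D0 mice lay above every other mouse of the series, the other being replicate 4. Oas3 fell 4.03-fold in Trem2-/- mice (log2 fold change -2.01, standard error 0.31, adjusted p = 1.08e-04; exact two-sided permutation test, p = 0.0286), and in WT mice its estimate of -0.64 had a standard error of 0.31 (adjusted p = 0.124). Oas2 was at 30.4, 23.9, 26.6 and 13.7 CPM in the WT D0 mice and at 15.5, 15.5, 17.4 and 16.7 CPM in the WT D7 mice. Oas2 reached 38.4, 50.6, 50.1 and 24.1 CPM in the Trem2-/- D0 mice and 13.7, 13.1, 13.2 and 18.9 CPM in the Trem2-/- D7 mice. WT D0 replicate 4 lay below all WT D7 mice, and in Trem2-/- mice every D7 value lay below every D0 value. Oas2 fell 2.58-fold in Trem2-/- mice (log2 fold change -1.37, standard error 0.24, adjusted p = 2.79e-04), and its WT log2 fold change was -0.46 (adjusted p = 0.152). Without WT D0 replicate 4 the WT values of both genes passed, at -0.87 for Oas3 (adjusted p = 0.0416) and at -0.69 for Oas2 (adjusted p = 0.0244). Oasl1 (-0.98, adjusted p = 0.00517) and Oasl2 (-0.87, adjusted p = 0.00621) fell by less in Trem2-/- mice.

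**Figure D2:**
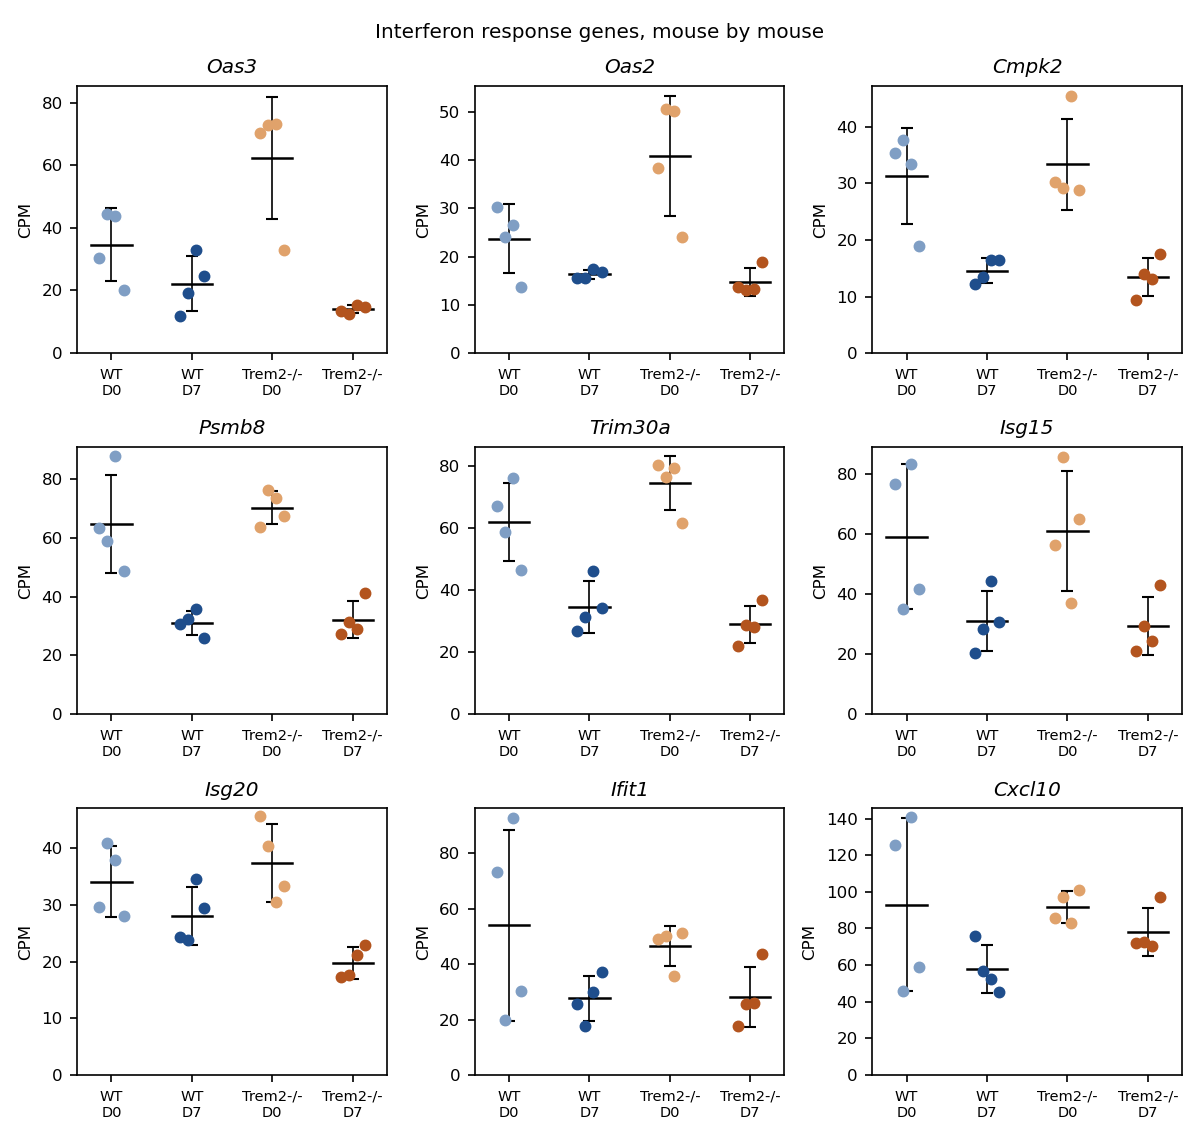
CPM of 9 members in each mouse (points), with the mean (line) and SD (bars) of the 4 mice in each of the 4 groups, on axes that start at 0. Oas3 and Oas2 are highest at Trem2-/- D0, Cmpk2, Psmb8 and Trim30a are lower at D7 in both genotypes, Isg20 is lowest at Trem2-/- D7, and the WT D0 points of Isg15, Ifit1 and Cxcl10 split into 2 high and 2 low mice.

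The Mx, GBP and IRG proteins are large GTPases that act on viruses and on vacuoles holding microbes, and the GBP and IRG genes respond strongly to interferon gamma. None of these 6 members passed in WT mice, and Mx2 and Irgm1 fell in Trem2-/- mice. Mx2 ranged from 15.3 to 25.3 CPM at Trem2-/- D0 and from 10.8 to 15.9 CPM at D7, with a slight overlap (log2 fold change -0.70, standard error 0.28, adjusted p = 0.0466), and its call was lost with any of 9 libraries left out (adjusted p up to 0.111), with a pseudocount of 5 (adjusted p = 0.0526) and, narrowly, with voom (adjusted p = 0.050018). Irgm1 fell in Trem2-/- mice from 133 ± 30.96 to 70.9 ± 12.98 CPM (SD, n = 4) without overlap (log2 fold change -0.88, standard error 0.28, adjusted p = 0.0147), and in WT mice, at 142 ± 66.6 CPM at D0 and 81.6 ± 15.9 CPM at D7, its log2 fold change was -0.69 (adjusted p = 0.0722). Gbp2, the most abundant of the 6, was at 273, 98.3, 310.4 and 168 CPM in the WT D0 mice and at 107, 72.4, 178 and 145 CPM in the WT D7 mice. Its Trem2-/- values were 207, 189, 134 and 224 CPM at D0 and 98.4, 159, 103 and 191 CPM at D7. The Gbp2 ranges overlapped in both genotypes, and the log2 fold change was -0.70 in WT (adjusted p = 0.137) and -0.48 in Trem2-/- mice (adjusted p = 0.253). Gbp3, Gbp7 and Igtp had log2 fold changes from -0.58 to -0.37 in WT and from -0.68 to -0.29 in Trem2-/- mice. Gbp7, whose adjusted p in Trem2-/- mice was 0.0867, was nevertheless lower in every Trem2-/- D7 mouse than in any Trem2-/- D0 mouse. Gbp7 shares 11.3% of its 75-base stretches with other annotated genes and Igtp 7.80%, the latter with Irgm2.

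Psmb8 is an immunoproteasome subunit that cuts proteins into peptides, and Tap1 is a chain of the transporter that carries these peptides to MHC class I. Both fell in both genotypes with no overlap of the groups. Psmb8 was at 63.3, 59.1, 87.9 and 48.7 CPM in the WT D0 mice and at 30.6, 32.3, 35.6 and 25.96 CPM in the WT D7 mice. Psmb8 reached 63.8, 76.4, 73.6 and 67.6 CPM in the Trem2-/- D0 mice and 27.3, 31.3, 28.8 and 41.3 CPM in the Trem2-/- D7 mice. Every D7 mouse lay well below every D0 mouse of its genotype, a fall of 2.01-fold in WT (log2 fold change -1.01, standard error 0.16, adjusted p = 0.00110) and of 2.17-fold in Trem2-/- mice (log2 fold change -1.12, standard error 0.16, adjusted p = 7.66e-05). Tap1 was at 101, 76.9, 115 and 68.5 CPM in the WT D0 mice and at 60.7, 48.2, 61.5 and 57.3 CPM in the WT D7 mice. Tap1 reached 89.3, 106, 94.1 and 105 CPM in the Trem2-/- D0 mice and 53.1, 55.8, 50.3 and 67.3 CPM in the Trem2-/- D7 mice. The highest D7 mouse lay below the lowest D0 mouse in each genotype, and Tap1 fell 1.55-fold in WT (log2 fold change -0.63, standard error 0.15, adjusted p = 0.00731) and 1.73-fold in Trem2-/- mice (log2 fold change -0.79, standard error 0.15, adjusted p = 4.54e-04). Psmb8 lies 0.496 kb from Tap1 on chromosome 17, and 14.7% of its exon length is overlapped by Gm20496 on the opposite strand; the strand setting of the counting was not given in the sources used here.

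Cxcl10, the chemokine that draws activated T cells, showed no call in either genotype. It was at 126, 46.1, 141 and 59.04 CPM in the WT D0 mice and at 76.05, 56.9, 52.6 and 45.2 CPM in the WT D7 mice. Cxcl10 reached 85.96, 97.4, 82.8 and 101 CPM in the Trem2-/- D0 mice and 71.96, 72.6, 70.3 and 97.3 CPM in the Trem2-/- D7 mice. WT D0 replicates 1 and 3 were the highest of all 16 mice, and Trem2-/- D7 replicate 4 stood at the level of the Trem2-/- D0 mice. The log2 fold change of Cxcl10 was -0.55 in WT (adjusted p = 0.148) and -0.24 in Trem2-/- mice (adjusted p = 0.492), and the WT value was -0.83 without WT D0 replicate 2 (adjusted p = 0.0329).

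Of the 12 remaining effectors, 3 fell in WT and 7 in Trem2-/- mice. Cmpk2, a mitochondrial nucleotide kinase, and Trim30a, a regulator of innate signaling, fell in both. Cmpk2 was at 35.4, 37.7, 33.4 and 18.95 CPM in the WT D0 mice and at 12.2, 13.4, 16.4 and 16.4 CPM in the WT D7 mice. Cmpk2 reached 30.2, 29.1, 45.4 and 28.8 CPM in the Trem2-/- D0 mice and 9.37, 14.1, 13.05 and 17.6 CPM in the Trem2-/- D7 mice. Its D7 values lay below all D0 values in both genotypes, and it fell 2.03-fold in WT (log2 fold change -1.02, standard error 0.22, adjusted p = 0.00490) and 2.38-fold in Trem2-/- mice (log2 fold change -1.25, standard error 0.22, adjusted p = 3.14e-04). Trim30a was at 67.1, 58.8, 76.1 and 46.5 CPM in the WT D0 mice and at 26.7, 31.4, 46.3 and 34.2 CPM in the WT D7 mice. Trim30a reached 80.3, 76.7, 79.3 and 61.7 CPM in the Trem2-/- D0 mice and 22.04, 28.8, 28.2 and 36.7 CPM in the Trem2-/- D7 mice. In WT the highest D7 mouse all but reached the lowest D0 mouse, while in Trem2-/- mice the groups were far apart. Trim30a fell 1.78-fold in WT (log2 fold change -0.83, standard error 0.18, adjusted p = 0.00563) and 2.55-fold in Trem2-/- mice (log2 fold change -1.35, standard error 0.18, adjusted p = 4.91e-05); it shares 4.98% of its 75-base stretches with Trim30d.

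Samd9l, an antiviral brake on protein synthesis, was the third effector that fell in both genotypes. It was at 146, 161, 167 and 113 CPM in the WT D0 mice and at 84.7, 77.3, 117 and 115 CPM in the WT D7 mice. Samd9l reached 202, 167, 210.4 and 126 CPM in the Trem2-/- D0 mice and 66.6, 70.1, 73.7 and 81.9 CPM in the Trem2-/- D7 mice. The fall of Samd9l was 1.49-fold in WT (log2 fold change -0.57, standard error 0.18, adjusted p = 0.0267), where 2 D7 mice lay just above the lowest D0 mouse, and 2.36-fold in Trem2-/- mice (log2 fold change -1.24, standard error 0.18, adjusted p = 6.68e-05). The WT call was lost without WT D0 replicate 2 or 3 or without WT D7 replicate 1 or 2, with adjusted p up to 0.0854, and with only the groups compared (adjusted p = 0.0644). Isg20, an RNA exonuclease, was at 29.6, 40.9, 37.9 and 28.00 CPM in the WT D0 mice and at 24.4, 23.8, 34.6 and 29.5 CPM in the WT D7 mice. Its Trem2-/- values were 45.7, 40.4, 30.5 and 33.3 CPM at D0 and 17.3, 17.7, 21.1 and 23.02 CPM at D7. The WT groups overlapped and the Trem2-/- groups did not, and Isg20 fell in Trem2-/- mice (log2 fold change -0.88, standard error 0.16, adjusted p = 4.50e-04) with a WT log2 fold change of -0.27 (adjusted p = 0.218).

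Rsad2, the enzyme viperin, which makes a chain-ending nucleotide, was at 114, 89.1, 130.3 and 66.99 CPM in the WT D0 mice and at 41.9, 51.4, 87.7 and 70.3 CPM in the WT D7 mice. Rsad2 reached 106, 127, 109 and 102 CPM in the Trem2-/- D0 mice and 34.5, 65.1, 50.2 and 89.9 CPM in the Trem2-/- D7 mice. The Trem2-/- D7 mice spread more than for any other member in that group, with replicate 4 highest, and all lay below the D0 mice. Rsad2 fell in Trem2-/- mice (log2 fold change -0.96, standard error 0.28, adjusted p = 0.00886), and its WT log2 fold change was -0.68 (adjusted p = 0.0759), which passed without WT D0 replicate 4 (adjusted p = 0.0335) and without WT D7 replicate 3 (adjusted p = 0.0362). Rtp4 and Ifi35 also fell in Trem2-/- mice, with log2 fold changes of -0.77 (adjusted p = 0.0332) and -0.55 (adjusted p = 0.0136). The Rtp4 call was lost with any of 5 libraries left out (adjusted p up to 0.0957), 10.5% of the 75-base stretches of Rtp4 lie in Gm45338, and 16.8% of the exon length of Ifi35 is overlapped by Gm11626 on the opposite strand.

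The remaining 5 effectors passed in neither genotype. Bst2, the tether that holds budding virus on the cell, was at 58.4, 29.6, 54.4 and 33.2 CPM in the WT D0 mice and at 34.3, 51.2, 42.2 and 31.7 CPM in the WT D7 mice. Its Trem2-/- values were 40.3, 60.4, 47.1 and 51.6 CPM at D0 and 35.4, 40.2, 40.04 and 67.1 CPM at D7. The D7 mice lay within the D0 range in WT, Trem2-/- D7 replicate 4 was the highest mouse of the series, and the log2 fold changes of Bst2 were -0.10 in WT and -0.15 in Trem2-/- mice (adjusted p = 0.772 and 0.608). Its WT estimate turned to 0.052 without WT D0 replicate 1 and to 0.019 without replicate 3. Ifitm3, which blocks virus entry in endosomes, was at 428, 242, 418 and 284 CPM in the WT D0 mice and at 205, 274, 287 and 233 CPM in the WT D7 mice. Ifitm3 reached 372, 354, 357 and 373 CPM in the Trem2-/- D0 mice and 245, 276, 252 and 367 CPM in the Trem2-/- D7 mice. The Trem2-/- D0 mice lay close together, and 3 of the 4 Trem2-/- D7 mice were far below them, while replicate 4 was not. The log2 fold change of Ifitm3 was -0.43 in WT (adjusted p = 0.0869) and -0.37 in Trem2-/- mice (adjusted p = 0.0974). The WT value passed without WT D0 replicate 2 (-0.58, adjusted p = 0.0332), the Trem2-/- value passed without Trem2-/- D7 replicate 4 (-0.50, adjusted p = 0.0359), and both passed with quantile normalization (adjusted p = 0.0362 and 0.0457), the Trem2-/- value also with the WT mice left out of the fit (adjusted p = 0.0350). Xaf1, Parp14 and Ifi44 had log2 fold changes of -0.47, -0.59 and 0.06 in Trem2-/- mice (adjusted p from 0.0756 to 0.892).

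**Figure D3:**
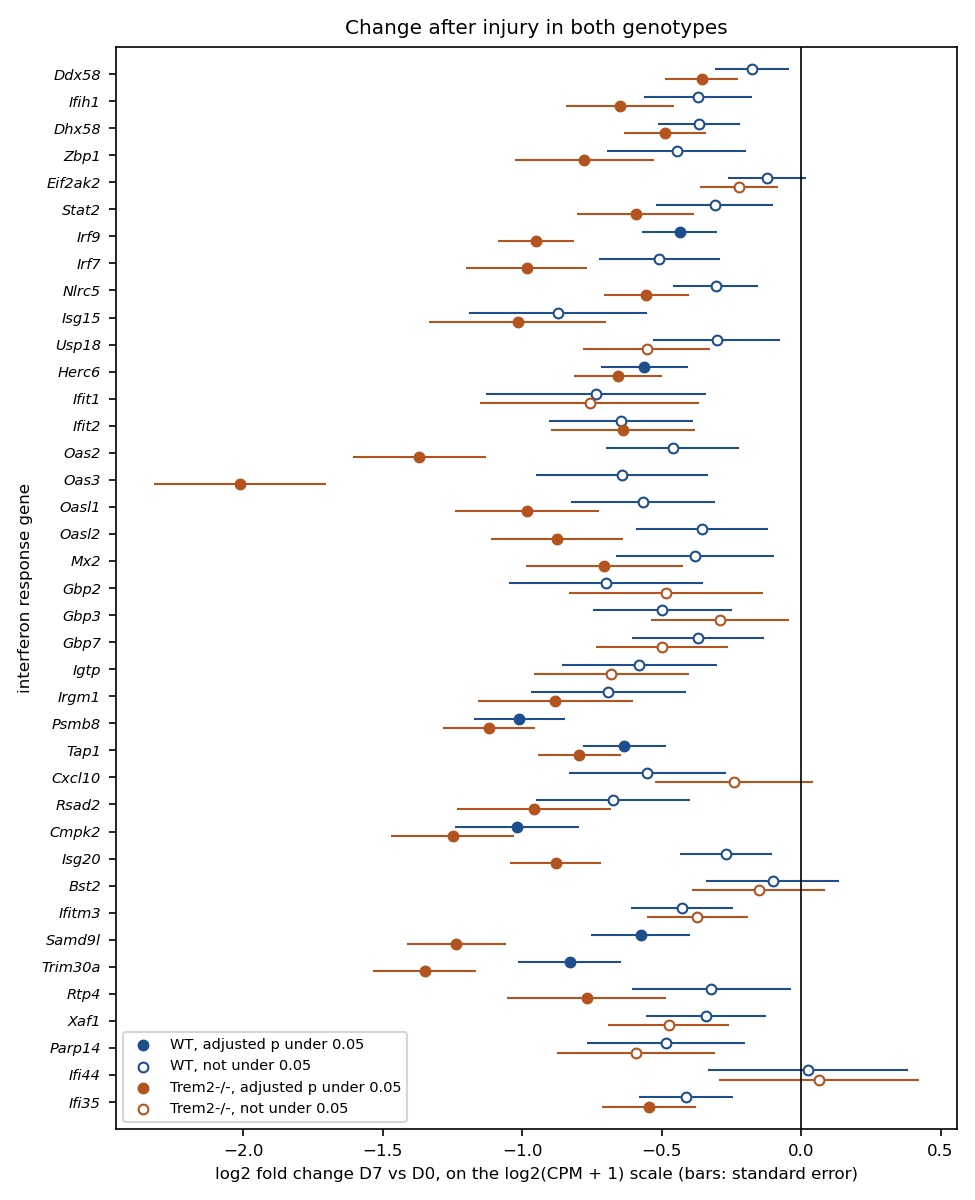
Log2 fold change D7 vs D0 of each of the 39 members on the log2(CPM + 1) scale in WT (blue) and Trem2-/- mice (orange), with its standard error as a bar, and filled points where the adjusted p was under 0.05. All but the 2 points of Ifi44 lie left of 0, with 7 filled points in WT and 26 in Trem2-/- mice, and Oas3 in Trem2-/- mice lies farthest left.

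The design also allows the injury responses of the genotypes to be compared directly. The log2 fold change was lower in Trem2-/- than in WT mice for 33 of the 39 members, beside 49.2% of all genes, and the median of the members' differences was -0.18. The count dropped to 24 when WT D0 replicate 2 was left out and to 25 when WT D0 replicate 4 was, and it reached up to 37 with another library left out, and the median ranged from -0.07 without WT D0 replicate 4 to -0.31 without WT D7 replicate 2. The responses of the genotypes share no mice. In the test of the difference itself, the interaction of genotype and injury, no member passed with limma, edgeR or voom, and 5, 5 and 6 members had an unadjusted p under 0.05. The 5 with limma met the study's rule for a lower response in Trem2-/- mice, beside 5.02% of all genes, or 12.8% of the members, and none met it for a higher response (2.77% of all genes). Oas3 had the lowest difference of responses, -1.37 (standard error 0.44, unadjusted p = 0.00670), followed by Oas2 at -0.91 (standard error 0.34, unadjusted p = 0.0164). Samd9l followed at -0.66 (unadjusted p = 0.0183), Isg20 at -0.61 (unadjusted p = 0.0185) and Irf9 at -0.51 (unadjusted p = 0.0167). The difference of responses equals the genotype difference at D7 minus that at D0, so it rests on the same D0 mice as the comparison before injury. There Oas3 and Oas2 were higher in Trem2-/- mice, by 0.82 and 0.76 on the log2 scale. The members' median genotype difference was 0.13 at D0 and -0.04 at D7. The adjusted p of the difference of responses was 0.579 for each of these 5 members, so that none of them passed after adjustment over all genes. Several marker lists differed in the same direction. The difference of responses lay below 0 for 7 of 7 leukocyte markers (median -0.94, 5 by the study's rule) and 10 of 10 neutrophil markers (median -0.87, 1 by the rule). It also did for 9 of 10 macrophage markers (median -0.52, 4 by the rule) and 6 of 6 tested markers of dissociation stress (median -0.37, 0 by the rule). Other lists went the other way, with differences above 0 for 7 of 7 fibroblast and lining markers (median 0.66, 1 by the rule) and 4 of 4 chondrocyte markers (median 0.72). None of these markers passed after adjustment, and their part in the members' differences was not tested.

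Before injury no member passed between the genotypes, while most estimates were slightly higher in Trem2-/- mice. The difference, Trem2-/- minus WT on the log2 scale, lay above 0 for 36 of the 39 members, with a median of 0.13 against 0.00 over all genes; with edgeR it lay below 0 for 9 members rather than 3 (48.8% of all genes with limma). Without WT D0 replicate 2 it lay below 0 for 15 members (median 0.06) and without replicate 4 for 16 (median 0.03), while without replicate 1 or 3 it lay below 0 for none (medians 0.26 and 0.27). None had an adjusted p under 0.05 with limma, edgeR or voom, and 3 had an unadjusted p under 0.05 with each. Oas3 and Oas2 met the study's rule as higher in Trem2-/- mice, 5.13% of the members beside 0.782% of all genes, and none met it as lower (1.37% of all genes). No member was without overlap between the genotypes, against 0.44% of all genes on the higher and 0.539% on the lower side. Oas3 averaged 34.7 ± 11.6 CPM in WT D0 and 62.3 ± 19.6 CPM in Trem2-/- D0 mice (SD, n = 4), a log2 difference of 0.82 (standard error 0.31, unadjusted p = 0.0173, adjusted p = 1.00). Oas2 averaged 23.7 ± 7.15 CPM in WT D0 and 40.8 ± 12.5 CPM in Trem2-/- D0 mice (SD, n = 4), a log2 difference of 0.76 (standard error 0.24, unadjusted p = 0.00600, adjusted p = 1.00). Both overlapped between the genotypes through Trem2-/- D0 replicate 4 (exact two-sided permutation test, p = 0.0857 for each). Without WT D0 replicate 4 the call of Oas3 was lost at a difference of 0.59 (unadjusted p = 0.0711). The count was 4 without Trem2-/- D0 replicate 4, WT D0 replicate 1 or WT D0 replicate 3. Some marker lists also stood higher in Trem2-/- D0 mice, with 6 of 6 tested markers of dissociation stress (median 0.43, 2 by the study's rule), 10 of 10 neutrophil markers (median 0.33) and 7 of 7 leukocyte markers (median 0.23). Others stood lower, with 7 of 7 fibroblast and lining markers (median -0.43, 2 by the rule) and 4 of 4 chondrocyte markers (median -1.04, 1 by the rule). So did 6 of 6 pro-B and pre-B cell markers (median -0.52, 2 by the rule) and 5 of 5 B cell markers (median -0.18). None of these markers was past the adjusted threshold. The stress markers summed to 10211, 12066, 7563 and 8290 CPM in the WT D0 mice and to 10196, 11919, 21393 and 11378 CPM in the Trem2-/- D0 mice. Their part in the members' differences was not tested.

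After injury no member passed between the genotypes either. The difference at D7 lay below 0 for 26 of the 39 members, beside 48.4% of all genes, with a median of -0.04. With a library left out in turn that median ranged from -0.17 to 0.03. The count of 26 was 16 without Trem2-/- D7 replicate 1, 19 without Trem2-/- D7 replicate 3 and 14 without WT D7 replicate 3, and it was 35 without Trem2-/- D7 replicate 4. The adjusted p was under 0.05 for none with limma, edgeR or voom, and 2, 3 and 2 had an unadjusted p under 0.05. Isg20 and Samd9l met the study's rule as lower in Trem2-/- mice, 5.13% of the members beside 4.53% of all genes, a share near the background, and none met it as higher (1.18% of all genes). Isg20 averaged 28.1 ± 5.05 CPM in WT D7 and 19.8 ± 2.75 CPM in Trem2-/- D7 mice (SD, n = 4), and it was the only member whose genotypes did not overlap at D7, beside 4.78% of all genes that were lower and 3.55% that were higher in this way (log2 difference -0.48, unadjusted p = 0.0104, adjusted p = 0.558; exact two-sided permutation test, p = 0.0286). Samd9l averaged 98.5 ± 20.5 CPM in WT D7 and 73.1 ± 6.57 CPM in Trem2-/- D7 mice (SD, n = 4), a log2 difference of -0.41 (unadjusted p = 0.0364, adjusted p = 0.642). That call was lost without any 1 of Trem2-/- D7 replicates 1, 2 and 3 and WT D7 replicates 3 and 4, with unadjusted p up to 0.113. Cxcl10 had the highest difference, 0.44 (standard error 0.28, adjusted p = 0.783), and Oas3 the lowest, -0.54 (standard error 0.31, adjusted p = 0.755). Markers of blood cells had lower estimates in Trem2-/- D7 mice, and 5 of 5 B cell markers met the study's rule without overlap of the genotypes (median -0.91). The rule was also met by 5 of 7 leukocyte markers (all 7 below 0, median -0.64), 4 of 10 macrophage markers (all 10 below 0, median -0.40) and 1 of 10 neutrophil markers (all 10 below 0, median -0.55). None passed after adjustment, and their part in the values of Isg20 and Samd9l was not tested.

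The members varied together among mice of the same group. WT D0 replicate 1 was the highest of its group in 20 of the 39 members and replicate 3 in 16, beside 32.0% and 15.6% of all genes, whereas replicate 2 was the lowest in 20 and replicate 4 in 19, beside 34.9% and 19.9% of all genes. The summed CPM of the 39 members was 3144 and 3126 in replicates 1 and 3 and 1828 and 1870.1 in replicates 2 and 4. In Trem2-/- D7 mice replicate 4 was the highest in 36 of the 39 members, beside 25.6% of all genes, with a summed CPM of 2127 against 1396 to 1633 in the other 3. In WT D7 mice replicate 3 was the highest in 22 members and replicate 2 the lowest in 23, beside 22.3% and 21.5% of all genes. The median SD of the members on the log2 scale was 0.44 at WT D0 (0.27 over all genes), 0.30 at WT D7 (0.21 over all genes), 0.23 at Trem2-/- D0 (0.24 over all genes) and 0.29 at Trem2-/- D7 (0.13 over all genes). Members thus spread more than other genes among mice of every group but Trem2-/- D0, where the spread was about that of all genes.

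Markers of cell types moved with the injury comparisons, and in bulk libraries fewer cells of a type and less RNA per cell cannot be told apart. Over all genes tested, 12.6% fell in WT and 27.2% in Trem2-/- mice, and 15.9% and 26% rose. The 7 leukocyte markers, led by Ptprc, summed to 2427 to 5071 CPM at WT D0 and to 1386 to 2891 CPM at WT D7, with a median log2 fold change of -1.17 and 6 of 7 lower. In Trem2-/- mice they summed to 3045 to 5502 CPM at D0 and to 1028 to 1307 CPM at D7, with a median of -2.04 and 7 of 7 lower. The 10 neutrophil markers fell in both genotypes, with medians of -1.38 in WT and -2.20 in Trem2-/- mice, from sums of 14109 to 31407 CPM at WT D0 and 14632 to 40902 CPM at Trem2-/- D0 to sums of 4451 to 14070 CPM and 4318 to 7067 CPM at D7. Of the plasmacytoid dendritic cells, a main source of type I interferon, 4 of 6 markers tested fell in WT (median -0.93) and 5 of 6 in Trem2-/- mice (median -1.69), 1 rose in the latter, and Klk1 had too few reads for a test. Macrophage markers, which summed to 257 to 419 CPM at WT D0, 554 to 749.7 CPM at WT D7, 314 to 371 CPM at Trem2-/- D0 and 435 to 506 CPM at Trem2-/- D7, went the other way, with 7 of 10 higher in WT (median 1.08) and 5 higher and 1 lower in Trem2-/- mice (median 0.48), and fibroblast and lining markers had medians of 1.69 and 2.33. The 5 B cell markers fell in both genotypes (medians -1.35 and -2.08), and the 4 chondrocyte markers rose in both (medians 2.89 and 3.62). Summed, the plasmacytoid dendritic cell markers were at 219 to 336 CPM at WT D0 and 228 to 262 CPM at WT D7. In Trem2-/- mice they summed to 160 to 270 CPM at D0 and 247 to 262 CPM at D7. Among them Tcf4 averaged 196 CPM over all libraries and Spib 34.5 CPM, while the others averaged 0.460 to 5.90 CPM. Within WT D0 the leukocyte sum did not follow the members: it was lowest, 2427 CPM, in replicate 1 and highest, 5071 CPM, in replicate 3, the mice in which the members were high. Trem2-/- D7 replicate 4, with the members high, had a leukocyte sum of 1231 CPM, between 1028 and 1307 CPM in the others. The 4 endothelial markers, led by Pecam1 and Cdh5, stood differently: they summed to 2522, 952, 1412 and 1091 CPM in WT D0 replicates 1 to 4, higher in replicates 1 and 3 as the members were. They summed to 1439, 1785, 1455 and 1962 CPM in Trem2-/- D7 replicates 1 to 4, the same order of mice as for the members' sums. In WT D7 replicates 1 to 4 they summed to 1216, 1509, 1874 and 1332 CPM. The members' sums there were 1562, 1395, 1947 and 1808 CPM, likewise highest in replicate 3, but lowest in replicate 2. In Trem2-/- D0 replicates 1 to 4 the endothelial sums were 980, 1808, 1177 and 2081 CPM and the members' sums 2613, 2849, 2523 and 2695 CPM. The highest and the lowest mouse differed between these. With injury none of the 4 endothelial markers passed, with medians of 0.08 in WT and 0.07 in Trem2-/- mice. Of the 6 tested markers of dissociation stress, genes that cells switch on during release from tissue, 1 fell in WT (median -0.25) and 3 in Trem2-/- mice (median -0.63). No marker of these lists was at 0 in all mice of a group. The part of these markers in the members' changes and in their spread among mice was not tested.

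**Figure D4:**
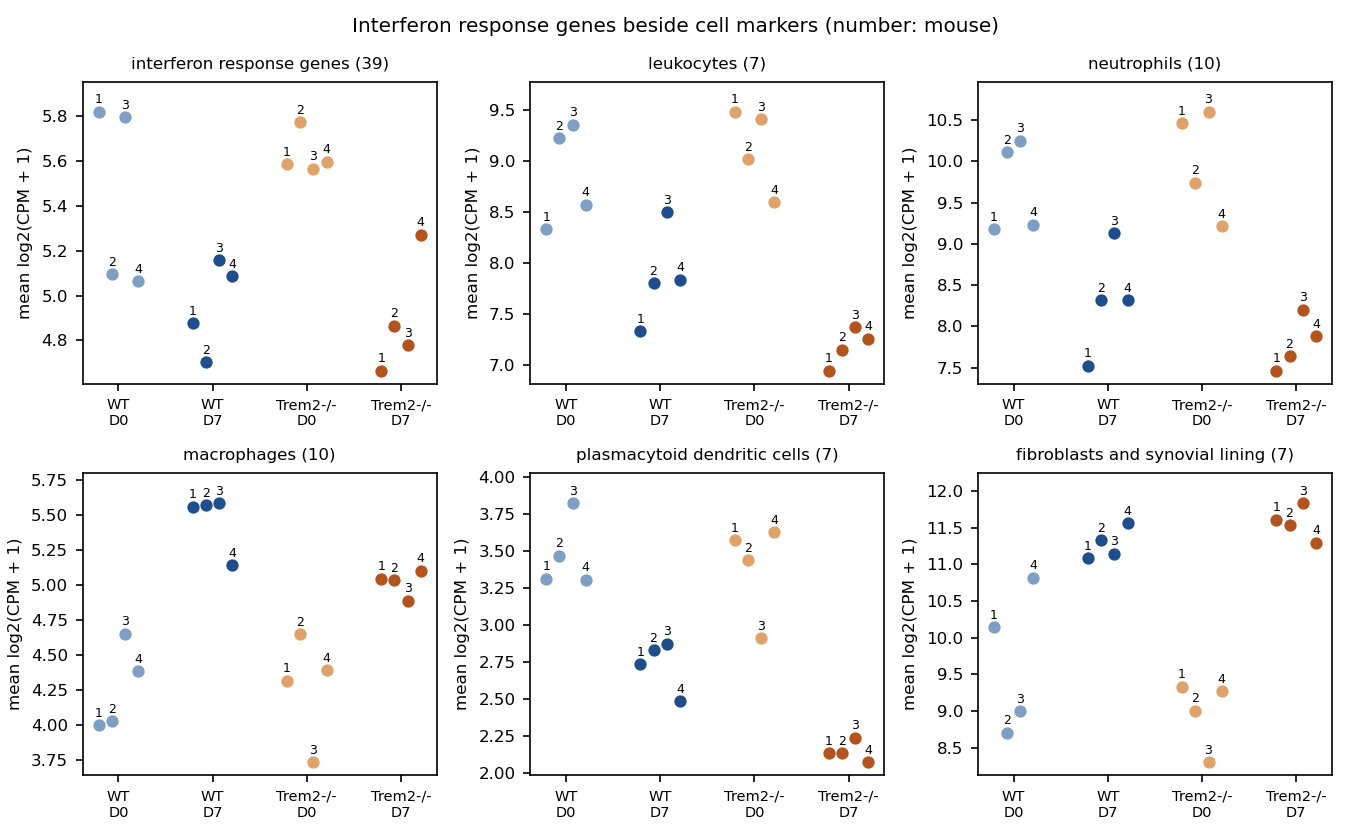
Mean log2(CPM + 1) of the 39 members and of 5 marker lists in each mouse, with the replicate number above each point and the number of genes in brackets. The members fall at D7 along with leukocyte, neutrophil and plasmacytoid dendritic cell markers, while macrophage and fibroblast markers rise, and within WT D0 replicates 1 and 3 are high for the members but lie apart for leukocytes.

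Genes around the module were read from lists that are not members. Of 10 interferon ligand genes only Ifng, interferon gamma, had a row; it fell in Trem2-/- mice (log2 fold change -1.12, standard error 0.26, adjusted p = 0.00198) and its WT log2 fold change was -0.44 (adjusted p = 0.199). The transcripts of the type I ligands were not analysed here. Of the 4 receptor chain genes (Ifnar1, Ifnar2, Ifngr1 and Ifngr2) 2 fell in WT and 3 in Trem2-/- mice, beside 12.6% and 27.2% of all genes tested. Ifnar2 fell in WT (log2 fold change -0.38, standard error 0.10, adjusted p = 0.0141) and Trem2-/- mice (log2 fold change -0.67, standard error 0.10, adjusted p = 1.03e-04), while Ifnar1 fell in Trem2-/- mice (log2 fold change -0.37, standard error 0.10, adjusted p = 0.00702) with a WT log2 fold change of -0.15 (adjusted p = 0.268). Ifngr1, a chain of the interferon gamma receptor, fell in WT (-0.60, adjusted p = 0.00259) and in Trem2-/- mice (-0.84, adjusted p = 4.93e-05), and Ifngr2, its other chain, had log2 fold changes of -0.04 and -0.24 (adjusted p = 0.866 and 0.183).

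Of 14 inducers upstream of interferon 3 fell in WT (21.4%), and 8 fell (57.1%) and 1 rose in Trem2-/- mice. The background of this and the following counts is the share of all genes tested that fell, 12.6% in WT and 27.2% in Trem2-/- mice. Mb21d1, which encodes the DNA sensor cGAS, had the lowest log2 fold change of this list in WT (-0.77, adjusted p = 0.00372). In Trem2-/- mice it also lay lower at D7, at 19.8 to 29.2 CPM at D0 and 9.80 to 11.3 CPM at D7. Irf5, a factor downstream of Toll-like receptors, had the lowest in Trem2-/- mice (log2 fold change -1.41, adjusted p = 7.06e-05). In WT mice Irf5 was at 33.5 to 73.1 CPM at D0 and at 32.0 to 50.2 CPM at D7, with overlap. Of 13 other IRF factors and feedback genes 5 fell in WT and 10 in Trem2-/- mice. Irf8, a factor of myeloid and plasmacytoid dendritic cells, fell in WT (log2 fold change -0.92, standard error 0.15, adjusted p = 0.00127) and in Trem2-/- mice (log2 fold change -1.35, standard error 0.15, adjusted p = 1.82e-05), and Irf1, a factor induced by interferon gamma, fell in Trem2-/- mice (log2 fold change -1.19, standard error 0.30, adjusted p = 0.00401) with -0.77 in WT (adjusted p = 0.0666). Ptpn6, a phosphatase of blood cells, had the lowest log2 fold change of this list in both genotypes, -1.11 in WT (adjusted p = 0.0203) and -2.20 in Trem2-/- mice (adjusted p = 7.58e-05). Of 38 further interferon-stimulated genes 9 fell and 1 rose in WT, and 23 fell and 1 rose in Trem2-/- mice, with medians of -0.47 and -0.62. Gbp5 was lowest in WT (-1.03, adjusted p = 0.0240) and Ms4a4c in Trem2-/- mice (-1.92, adjusted p = 9.49e-04). Of 10 genes of the MHC class I pathway 7 fell in WT and 9 in Trem2-/- mice. Psmb9, like Psmb8 an immunoproteasome subunit, was lowest in both (-1.02, adjusted p = 0.00366, and -1.43, adjusted p = 7.12e-05).

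Several members are neighbors in the genome (GENCODE M21, GRCm38). Oas2 and Oas3 lie 3.25 kb apart on chromosome 5, where Oasl2 and Oasl1 lie 11.0 kb apart; Rsad2 and Cmpk2 lie 12.8 kb apart on chromosome 12, Gbp7 and Gbp3 9.88 kb apart on chromosome 3, and Ifit2 and Ifit1 64.5 kb apart on chromosome 19. The log2 fold changes of such neighbors were of the same sign in both genotypes, for example -2.01 and -1.37 in Trem2-/- mice for Oas3 and Oas2, as they were for nearly all members. Per kilobase of exon, Ifitm3 was by far the most abundant member at WT D0, with 506 CPM per kb, ahead of Gbp2 with 84.5, Isg15 with 78.3, Bst2 with 48.7 and Cxcl10 with 41.3. At Trem2-/- D7 the order of the first 4 was Ifitm3 with 420.0, Gbp2 with 54.7, Bst2 with 50.6 and Isg15 with 38.9 CPM per kb, and the values of single mice overlapped between Gbp2 and Bst2.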

How the data were processed

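RNA of knee joint cells from 16 mice was sequenced, and 1 library per mouse was deposited. According to their methods and processing notes, the authors used STAR for alignment to mm10 (GRCm38), featureCounts for counting by gene and the TMM method of edgeR for scaling; versions, the gene annotation and the strand setting were not given in the sources used here. The deposited signal is thus a TMM-scaled CPM. All values (100%) were whole multiples of the value of 1 read within a tolerance of 0.01, so the reads could be recovered, and 3 reads were worth 0.101 to 0.250 CPM. A repeated identical row of Fcgr1 was counted once (13734 rows, 13733 genes).

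Values were taken as log2(CPM + 1), which understates the change of low genes, and a gene was kept if 4 or more libraries had 1 CPM or more of it. The test was limma 3.58.1 under R 4.3.3, by lmFit and a moderated test with an intensity trend, the 4 groups forming a single factor. P-values were adjusted by the Benjamini-Hochberg method over all 13173 genes, for each comparison by itself. Exact permutation tests over 4 mice against 4 were two-sided and cannot go below 0.0286. Replicates were taken as separate mice, as the labels name them; whether tissue was pooled was not stated. Their counts differed well beyond sampling noise (a chi-square of at least 10.8 for each degree of freedom). Alternatives were edgeR 4.0.16 and voom on the whole reads, other pseudocounts, filters and scalings, only the groups compared, a replicate block and leaving out each library.

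The members and the lists were chosen with earlier results of these data known. Mouse-by-mouse values were given for members chosen by name and for up to 4 members with the largest called change in each direction in each comparison, with a mean of at least 5 CPM; Gbp2 was added after its values were seen. Lengths, positions and shared 75-base stretches came from GENCODE M21, and promoters from RefSeq on GRCm38.p6. A result of the receptor and signaling list is not reported here.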

Additional observations from a re-analysis of the deposited data

Results flagged for a closer look

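In 12 of 156 combinations of a member and a group, a mouse stood apart from the other 3 of its group, its gap to the nearest of them taking more of the group's range than Dixon's limit for 4 values at 95%; about 1 in 20, or 8, would be passed by chance. Trem2-/- D7 replicate 4 was that mouse for 7 members and was the highest of its group each time. The gap took 0.8301 of the range for Irf7, 0.901 for Oas2, 0.856 for Mx2, 0.844 for Irgm1, 0.915 for Cxcl10, 0.847 for Bst2 and 0.844 for Ifi35. In Trem2-/- D0 mice replicate 3 was low for Ifit1 (0.847) and high for Cmpk2 (0.914), and replicate 4 was low for Oas3 (0.930), at 32.98 CPM against 70.3 to 73.1 CPM in the others. WT D7 replicate 2 was low for Eif2ak2 (0.862) and Igtp (0.836).

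The injury response differed between genotypes at an unadjusted p under 0.05 for 5 members, each with the lower response in Trem2-/- mice. The difference of the log2 fold changes was -1.37 for Oas3, -0.91 for Oas2, -0.66 for Samd9l, -0.61 for Isg20 and -0.51 for Irf9, and none passed after adjustment (limma, adjusted p = 0.579).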

How the results depend on the processing

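Of the counts and medians recomputed with other tools, pseudocounts, filters, scalings, the replicate block or only the groups compared, 243 stayed within the limits set for them and 2 moved. With only the groups compared, the adjusted count of lower members in WT was 4 rather than 7, 7 further members passed in Trem2-/- mice (Usp18, Ifit1, Gbp7, Igtp, Ifitm3, Xaf1 and Parp14), and 1 member rather than 0 met the study's rule as higher in Trem2-/- mice at D7. With a library left out in turn, 383 values stayed and 17 moved. The WT adjusted count then ranged from 4 to 16 and the WT count by the study's rule from 6 to 26, the count at D7 from 1 to 3 and the count at D0 from 1 to 4. The log2 fold change of Bst2 in WT ranged from -0.27 to 0.052, and it turned to above 0 without WT D0 replicate 1 (0.052) or 3 (0.019). The cause was not tested.

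Samples with the same replicate number did not regularly deviate together (correlations from -0.51 to 0.41, 11 of 24 over 0.1), and the numbers were not taken as pairs. Between WT D0 and WT D7 all 4 correlations lay above 0 (0.046, 0.20, 0.41 and 0.31). Between Trem2-/- D0 and D7 they ranged from -0.20 to 0.11. With the replicate number as a block, the adjusted count of lower members was 7 in WT and 24 in Trem2-/- mice, where Usp18 passed (adjusted p = 0.0473) and Ifit2 (adjusted p = 0.0647), Mx2 (adjusted p = 0.0530) and Rtp4 (adjusted p = 0.0509) were lost.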
